A study of Mus musculus with 6 samples.

Results

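Eosinophils are granulocytes made in the bone marrow, and a small set of genes sets them apart from the neutrophils beside them. Their granules hold cationic proteins: the major basic protein encoded by Prg2, its homologue encoded by Prg3, the peroxidase encoded by Epx, which makes hypobromous acid, and, in mice, ribonucleases of the Ear (eosinophil-associated ribonuclease) family. On their surface they carry the interleukin 5 receptor, whose ligand-binding alpha chain is Il5ra and whose signalling chain is shared with the interleukin 3 and GM-CSF receptors, and Ccr3, the receptor for the eotaxin chemokines. The granule proteins are made while the cell matures in the marrow, and interleukin 5 drives that maturation. The genes described here are Ear1, Ear2, Ear6, Prg2, Prg3, Epx, Il5ra and Ccr3, 8 in all. They were read by the 8 probe sets, out of 45101 on the array, whose gene symbol in the authors' deposited table is one of these names or a joint entry of Ear genes alone. Of these probe sets 7 passed the filter on low values. A single probe set reads each of Ear1, Prg2, Prg3, Epx, Il5ra and Ccr3; 2 further probe sets are shared, one by Ear1, Ear12, Ear2 and Ear3 and the other by Ear12, Ear2 and Ear3, so Ear2 was read only jointly with its relatives, and expression of Ear6 was not analysed here.

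The RNA came from the whole marrow of 8 week old mice that carry an inducible c-Jun, 3 mice pooled for each array. The 3 control arrays came from pools of such mice that were not induced and had no doxycycline. The 3 induced arrays came from pools of such mice that drank doxycycline at 1 mg/ml for 24 h to switch on c-Jun. The c-Jun protein pairs with Fos proteins in the transcription factor AP-1. Both groups carried the inducible gene, and the array titles of both hold the label R-K, which they do not explain. The promoter and alleles of the inducible gene are not given in the sources used here. No array of mice given doxycycline without the inducible gene was analysed here, so the drug, the induced gene and the day cannot be told apart. Arrays within a group are labelled as biological replicates, and p-values measure the spread between these pools.

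The Jun probe sets themselves were near background. One read 1.2, 2.5 and 1.1 in controls 1 to 3 and 1.8, 0.1 and 1.1 in induced arrays 1 to 3, and the other 0.2, 2 and 1.2 against 4.3, 2.6 and 1.5, so they do not check the labels, and whether they read the transgene is not known here. Markers of the marrow were present. The summed signal of the erythroid markers ranged from 1160 to 1353.2 in controls and from 269.9 to 344.5 in induced arrays, and that of the neutrophil secondary granule genes from 2275 to 2771.4 and from 1916.3 to 2494.7. The summed signal of all probe sets other than controls lay between 189287 and 214237 in controls and between 222930 and 278500 in induced arrays. Control 2 stood apart in having 346 signals of 0, against 4653 to 7818 on the other arrays; without it 5 of the 6 eosinophil calls described below were kept and that of Prg3 was not. The Gapdh signal at the 5' end as a percentage of that at the 3' end is a measure of RNA integrity and amplification. This percentage was 12.5% to 22.7% in controls and 25.8% to 28.9% in induced arrays. Its part in the results below was not tested.

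The promoters of the granule genes are shown here with those of the receptor genes beside them. Each line holds the 250 bases before an annotated transcription start site, 5' to 3' on the gene's strand, from RefSeq (GRCm38.p6). A promoter was available for 7 of the 8 genes. Prg2 had none, so its promoter was not searched. The Ccr3 window lies inside the RefSeq span of the gene, and the Prg3 window runs past the start of its span. These windows therefore do not precede the outermost start of those genes. Capitals mark matches, on either strand, to any of 4 motifs: AGATAA and TGATAA, which GATA factors are known to bind, TGANTCA, the AP-1 element, and TTGCNNAA, a C/EBP-type element; no 2 marked matches overlap.
Ear1, chr14:43819640-43819889, strand minus: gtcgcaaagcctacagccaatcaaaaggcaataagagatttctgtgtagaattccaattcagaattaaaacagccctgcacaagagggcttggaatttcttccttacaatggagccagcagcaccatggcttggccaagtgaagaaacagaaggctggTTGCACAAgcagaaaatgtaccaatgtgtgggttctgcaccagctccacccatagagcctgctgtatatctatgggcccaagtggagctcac
Ear2, chr14:44102404-44102653, strand plus: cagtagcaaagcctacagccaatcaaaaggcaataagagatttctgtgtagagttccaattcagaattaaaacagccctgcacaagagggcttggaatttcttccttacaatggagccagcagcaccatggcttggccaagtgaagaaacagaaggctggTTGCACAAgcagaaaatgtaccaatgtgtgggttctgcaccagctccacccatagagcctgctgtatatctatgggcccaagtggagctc
Epx, chr11:87875537-87875786, strand minus: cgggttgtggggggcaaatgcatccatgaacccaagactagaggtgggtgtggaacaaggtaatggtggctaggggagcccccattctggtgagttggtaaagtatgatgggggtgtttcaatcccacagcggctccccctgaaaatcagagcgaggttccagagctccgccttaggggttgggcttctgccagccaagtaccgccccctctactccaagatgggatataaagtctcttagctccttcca
Prg3, chr2:84987965-84988214, strand plus: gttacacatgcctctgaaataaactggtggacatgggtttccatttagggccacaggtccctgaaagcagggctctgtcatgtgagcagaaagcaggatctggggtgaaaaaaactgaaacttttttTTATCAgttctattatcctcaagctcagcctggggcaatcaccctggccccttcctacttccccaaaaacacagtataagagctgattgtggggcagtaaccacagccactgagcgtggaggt
Il5ra, chr6:106749038-106749287, strand minus: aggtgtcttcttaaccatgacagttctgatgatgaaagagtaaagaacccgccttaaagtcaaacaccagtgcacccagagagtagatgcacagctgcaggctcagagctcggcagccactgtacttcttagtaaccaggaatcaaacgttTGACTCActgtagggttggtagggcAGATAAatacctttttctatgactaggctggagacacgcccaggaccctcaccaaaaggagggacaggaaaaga
Ccr3, chr9:124021721-124021970, strand plus: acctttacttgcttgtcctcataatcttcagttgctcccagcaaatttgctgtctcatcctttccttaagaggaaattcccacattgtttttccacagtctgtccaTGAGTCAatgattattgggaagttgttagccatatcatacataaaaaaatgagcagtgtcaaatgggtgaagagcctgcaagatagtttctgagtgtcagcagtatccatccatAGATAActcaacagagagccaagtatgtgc
The Ear1 and Ear2 promoters were identical at 246 of 252 aligned positions (97.6%), and both held the C/EBP-type match TTGCACAA. The Ear6 promoter, not printed, was 78.2% identical to that of Ear1 and held none of the 4 motifs. Prg3 held 1 match to TGATAA, read on the opposite strand, and Epx held none of the 4. The AP-1 element was in the windows of Il5ra (TGACTCA) and Ccr3 (TGAGTCA), each of which also held AGATAA, and in no window of the other 5 genes. Among all 32851 RefSeq promoter windows of this length, 6.75% held TGANTCA, 9.99% AGATAA, 7.94% TGATAA and 9.56% TTGCNNAA. These are matches of letters, and none was tested for binding.

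After 24 h of induction, 6 of the 8 eosinophil probe sets were higher than in controls and none was lower, at an adjusted p under 0.05 (limma, fitted over all 31526 probe sets tested); 4.19% of all probe sets tested were called higher. All 6 read granule proteins or Ear ribonucleases, and their means rose between 3.61-fold and 12.3-fold. Neither receptor probe set was called, and both stayed at or under the background signal of 2 on every array. Signals below are the deposited values in arbitrary units; ratios are ratios of mean signals, and log2 changes are of (signal + 16), where the added constant shrinks the change of dim genes. In bulk marrow, possibilities such as more eosinophils and more of these transcripts per eosinophil cannot be told apart. The part of the lower erythroid signal, given above, in these values was not tested.

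**Figure D1:**
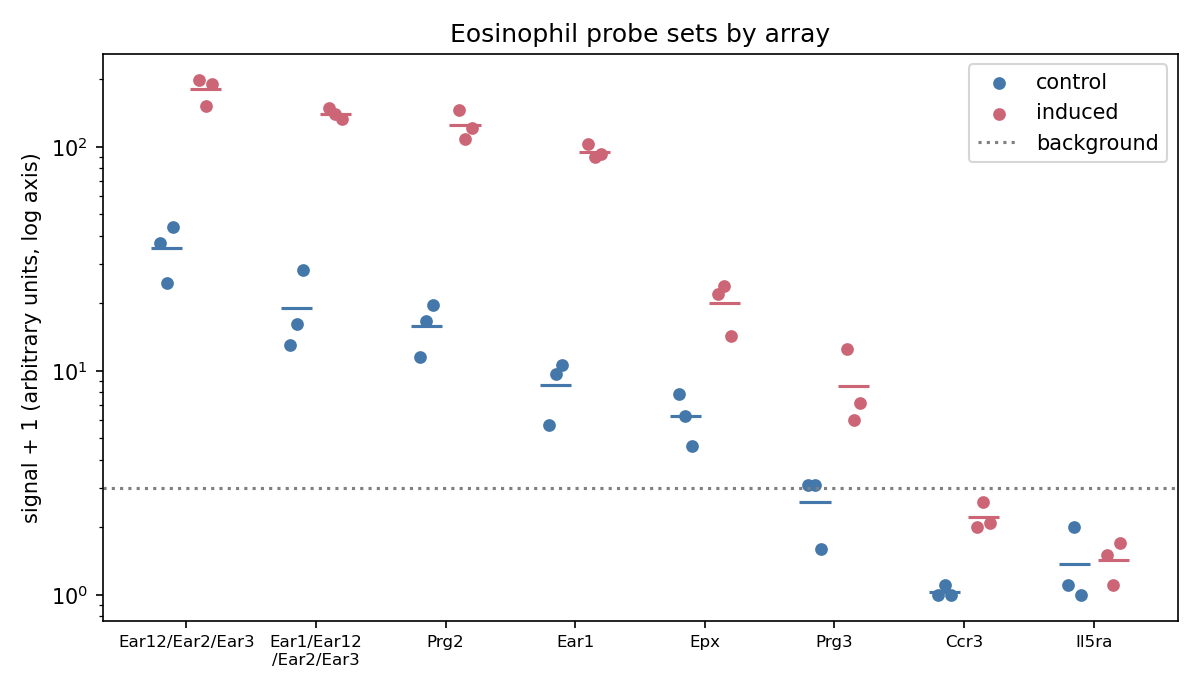
Signal plus 1 (log axis, arbitrary units) of the 8 eosinophil probe sets on each of the 3 control and 3 induced arrays; points are arrays, short lines group means, and the dotted line the background signal of 2. All induced arrays lie above all control arrays for the 6 granule and Ear probe sets, while Ccr3 and Il5ra lie at or under background.

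Of the Ear ribonuclease probe sets, that of Ear1 had the largest ratio of means. Ear1 encodes a secreted ribonuclease of the granule. The Ear1 probe set read 4.7, 8.7 and 9.6 in controls 1 to 3 and 101.8, 89.3 and 91.4 in induced arrays 1 to 3. The lowest induced array was 9.30 times the highest control. The mean went from 7.67 ± 2.61 to 94.2 ± 6.69 (SD, n = 3 arrays each), a 12.3-fold rise, and the log2 change was 2.22 with a standard error of 0.08 (limma, adjusted p = 2.24e-06).

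The probe set shared by Ear1, Ear12, Ear2 and Ear3 read 12, 15.2 and 27.1 in controls and 147.8, 138.9 and 132.6 in induced arrays. The groups lay well apart, and the mean rose 7.72-fold, from 18.1 ± 7.96 to 139.8 ± 7.64 (SD, n = 3 each; log2 change 2.22, standard error 0.13, limma adjusted p = 3.81e-05). The probe set shared by Ear12, Ear2 and Ear3, which carries no Ear1 entry, read 36.2, 23.6 and 43.0 in controls and 198.2, 151.3 and 188.8 in induced arrays. Ear2, like Ear1, is a secreted ribonuclease, and this probe set was the brightest of the 8 in both groups, although levels of different probe sets are not comparable. Its mean rose 5.24-fold, from 34.3 ± 9.84 to 179.4 ± 24.8 (SD, n = 3 each; log2 change 1.97, standard error 0.14, limma adjusted p = 9.10e-05). Because Ear genes resemble each other closely, the deposited values do not say how much of each shared signal belongs to which gene.

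Among the granule core genes, Prg2 read 10.5, 15.6 and 18.6 in controls and 145.5, 107.2 and 119.9 in induced arrays. Prg2 encodes the major basic protein, the crystalline core of the eosinophil granule. Every induced array was at least 5.76 times the highest control, and the mean rose 8.34-fold, from 14.9 ± 4.10 to 124.2 ± 19.5 (SD, n = 3 each; log2 change 2.18, standard error 0.11, limma adjusted p = 1.82e-05). Prg3, its homologue, read 2.1, 2.1 and 0.6 in controls and 11.5, 5.0 and 6.2 in induced arrays, so that 2 controls were just above background and 1 was below it. Its mean was 1.60 ± 0.87 and 7.57 ± 3.46 (SD, n = 3 each; log2 change 0.41, standard error 0.09, limma adjusted p = 0.0349). The Prg3 call was lost without control 1 (adjusted p = 0.0799), control 2 (0.110), control 3 (0.141) or induced 3 (0.0735), while all 3 induced arrays stayed above all 3 controls as deposited.

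Epx, the eosinophil peroxidase, read 6.9, 5.3 and 3.6 in controls and 21.0, 22.8 and 13.3 in induced arrays. The groups did not overlap, with the lowest induced array 1.93 times the highest control. The mean rose 3.61-fold, from 5.27 ± 1.65 to 19.0 ± 5.05 (SD, n = 3 each; log2 change 0.71, standard error 0.10, limma adjusted p = 0.00361). At a pseudocount of 1 in place of 16 the adjusted p was 0.0636. At that setting 4 eosinophil probe sets were called higher, Ear1, Prg2 and both shared ones, against 0.349% of all probe sets tested.

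The receptors could not be read in either group. Il5ra, which binds interleukin 5, read 0.1, 1.0 and 0 in controls and 0.5, 0.1 and 0.7 in induced arrays; the groups overlapped, and the probe set did not pass the filter on low values, so it was not tested. Ccr3, the eotaxin receptor, read 0, 0.1 and 0 in controls and 1.0, 1.6 and 1.1 in induced arrays. The induced Ccr3 values were all higher, but all 6 were at or under background, so no fold is given. The log2 change of Ccr3 was 0.10 with a standard error of 0.05 (limma, adjusted p = 0.340), and a difference at this signal was not detectable.

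**Figure D2:**
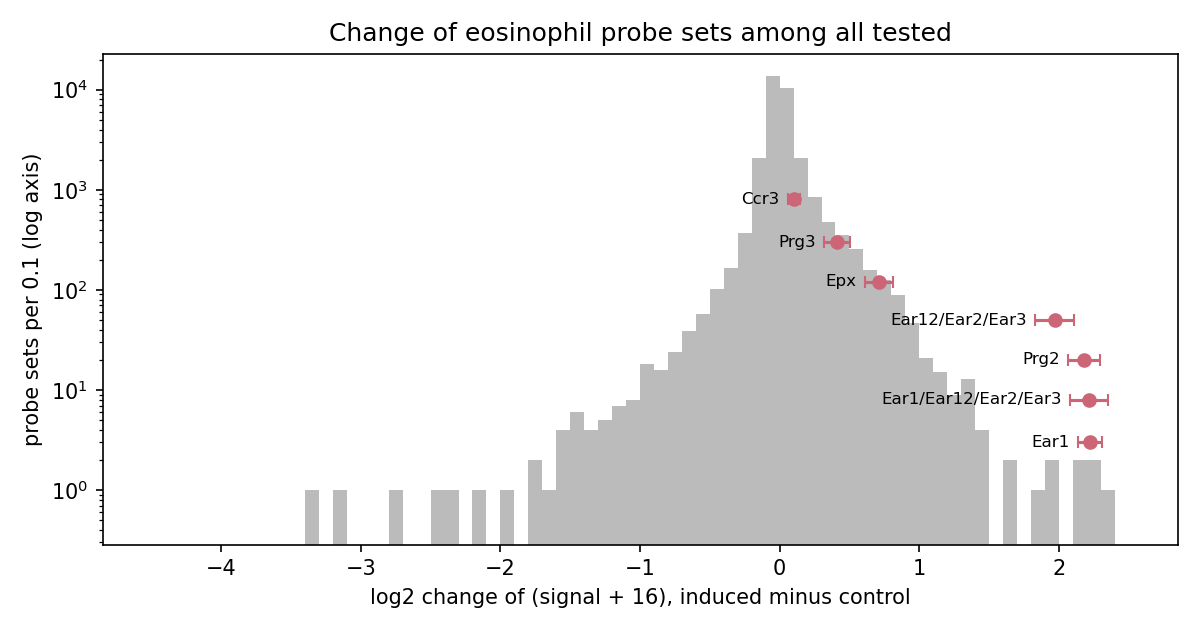
Log2 change of (signal + 16), induced minus control, for the 7 eosinophil probe sets tested (points, with bars of 1 standard error, at arbitrary heights) over a histogram of all 31526 probe sets tested (log axis). The Ear1, shared Ear and Prg2 probe sets lie at the right end, between 1.97 and 2.22, Epx at 0.71, Prg3 at 0.41 and Ccr3 at 0.10.

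Ranked by log2 change among the 31526 probe sets tested, the Ear1 probe set was 2, the 4-gene Ear probe set 3, Prg2 4 and the 3-gene Ear probe set 7, whereas Epx was 319 and Prg3, close to background in controls, 1044. The median change of the 7 eosinophil probe sets tested was 1.97 and that of all probe sets tested was -0.005. Induced arrays were all above controls for 10.9% of the probe sets tested. The induced array with the highest signal was induced 1 for 5 of the 6 called eosinophil probe sets, and for Epx it was induced 2. Induced 1 also had the highest summed signal of the 6 arrays.

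The change of each called gene was also set against that of Prg2 within the same arrays, in 5 comparisons. The log2 change of Epx minus that of Prg2 was -1.47 (exact two-sided permutation p = 0.1, the smallest that 3 against 3 arrays can give; adjusted p = 0.25). At a pseudocount of 1, where dim genes are compressed less, it was -1.32 (exact permutation p = 0.1). For Prg3, whose control mean lies under background, the size of the change is not measured well enough to set it against that of Prg2. The changes of Ear1 and of the 4-gene Ear probe set differed from that of Prg2 by 0.04 and 0.03 (exact permutation p = 0.7 for each), and that of the 3-gene Ear probe set by -0.21 (exact permutation p = 0.4). At a pseudocount of 1 the Ear1 change was larger than that of Prg2 by 0.50 (exact permutation p = 0.1). With these numbers of arrays, no such difference can pass the threshold.

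The 6 probe sets were called under each scaling between arrays that was run, namely quantile normalization, median centring and a common trimmed mean. With each array divided by its summed signal, the ratios of means were 10.4 for Ear1, 6.56 for the 4-gene and 4.35 for the 3-gene Ear probe set, 7.0 for Prg2, 3.79 for Prg3 and 2.99 for Epx. After quantile normalization 3.09% of all probe sets were called higher, and the log2 change was 2.05 for Ear1, 1.97 for Prg2, 0.61 for Epx and 0.37 for Prg3. Over all probe sets, 75.6% of calls were higher as deposited and 53.3% after quantile normalization. For the 2868 probe sets brighter than 10 on average, the median log2 change was 0.24 as deposited and 0.06 after it. In the authors' deposited table, the induced over control ratio was 14.3 for Ear1 (unadjusted p = 1.27e-05), 8.07 for Prg2, 5.48 and 4.68 for the 4-gene and 3-gene Ear probe sets, 3.93 for Epx and 3.82 for Prg3. It was 1.26 for Ccr3 (unadjusted p = 0.156) and 1.01 for Il5ra (unadjusted p = 0.858) in the authors' deposited table. The authors' 2-fold list holds the other 6 and not Ccr3 or Il5ra, and 1.53% of all probe sets are on that list as higher. The authors' ratios are not those of the deposited mean signals, which gave 7.72 for the 4-gene Ear probe set. The values behind the authors' ratios were not analysed here.

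**Figure D3:**
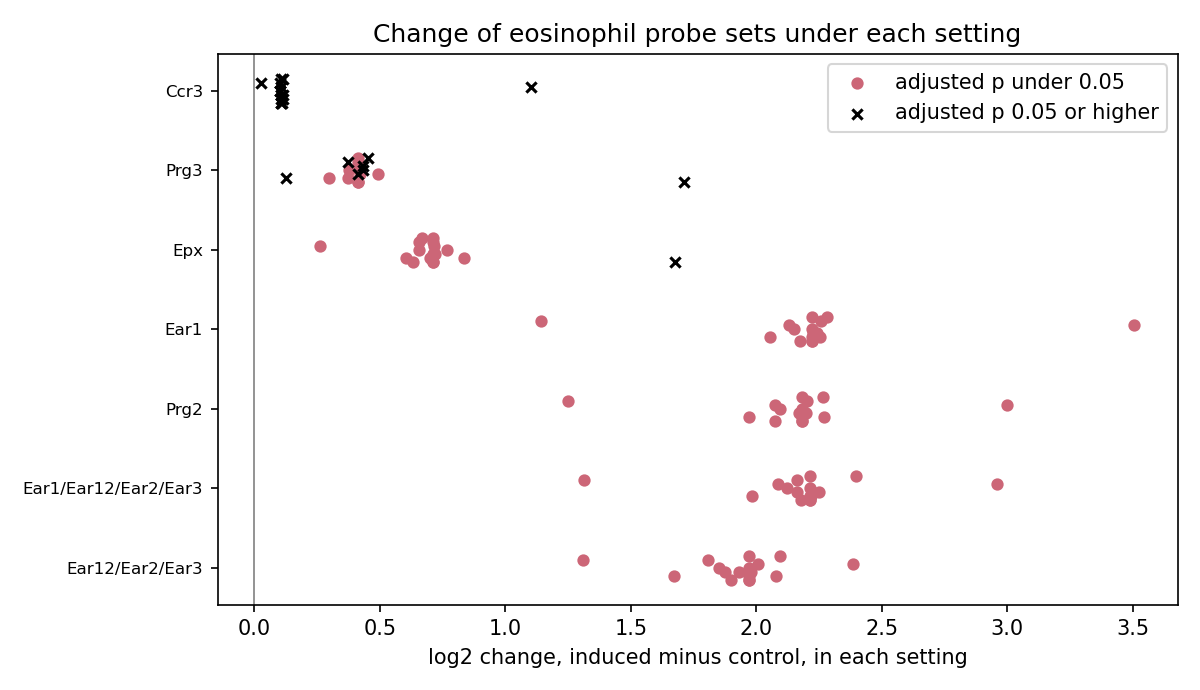
Log2 change, induced minus control, of the 7 tested eosinophil probe sets as reported and under each alternative of scaling, pseudocount, filter, variance model and left-out array (one point per setting; crosses where the adjusted p was 0.05 or higher). Ear1, Prg2 and both shared Ear probe sets passed in every setting drawn, Epx failed at a pseudocount of 1, Prg3 failed in 7 of the 16 alternatives, and Ccr3 failed in all.

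Other genes of the eosinophil were read with lists chosen for this tissue. Of 4 other Ear genes with a probe set of their own, 3 were tested and 1 rose (median log2 change 0.06). Ear3, read by a probe set of the type that can cross-hybridise, had 2.6, 8.1 and 7.0 in controls and 23.1, 20.8 and 12.8 in induced arrays, a 3.20-fold rise of the mean (limma, adjusted p = 0.0135). The Ear3 call did not hold at a pseudocount of 1 (adjusted p = 0.12) or 64 (0.0604), with no filter on low values (0.0967) or by the authors' p-values (0.086). Ear4, Ear5 and Ear11 were at or under background on all 6 arrays.

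Of 11 genes tested for eosinophil surface proteins and lipid mediators, 3 rose and 0 fell, with a median log2 change of 0.19 against -0.001 over the 16273 genes tested; 5.13% of all genes tested were called higher and 1.83% lower. Alox15, the 12/15-lipoxygenase of mouse eosinophils and macrophages, read 1.2, 0.1 and 1.9 in controls and 7.4, 8.0 and 5.8 in induced arrays, at least 3.53-fold higher with the background of 2 as the floor (limma, adjusted p = 0.00277). Alox5ap, which presents arachidonic acid to 5-lipoxygenase in many leukocytes, rose 2.10-fold, from 43.8 ± 8.66 to 91.9 ± 10.9 (SD, n = 3 each; limma adjusted p = 0.00148). Emr1, the F4/80 antigen of macrophages and eosinophils, had a mean of 2.30 in controls and 6.23 in induced arrays (limma, adjusted p = 0.0293), a call that was lost without any 1 array other than induced 2. The defining eosinophil lectin Siglecf, listed in the files as Siglec5, read 0.1, 0.1 and 1.4 in controls and 3.4, 2.2 and 3.3 in induced arrays; all induced arrays were above all controls and above background, and the test was not passed (limma, adjusted p = 0.0769). The prostaglandin receptor Gpr44, the histamine receptor Hrh4 and Itgam were at or under background throughout. A signal at background does not by itself show that a gene is not expressed.

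**Figure D4:**
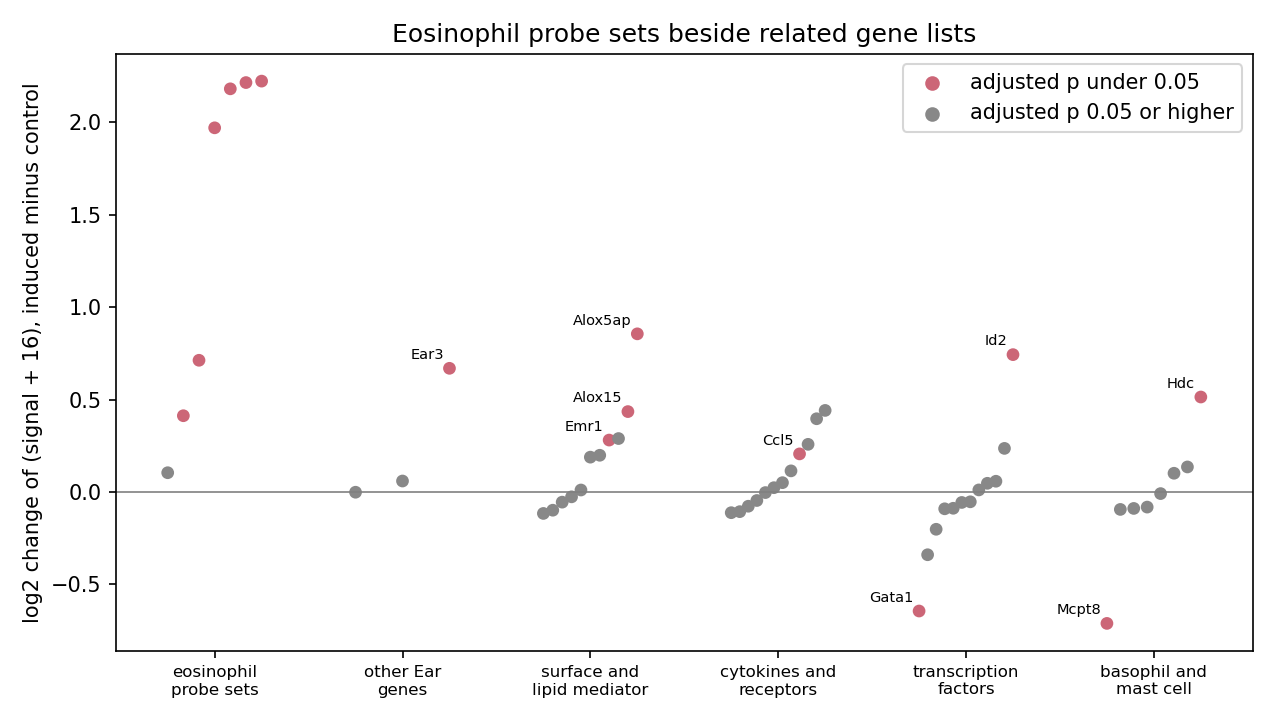
Log2 change of (signal + 16), induced minus control, of the 7 tested eosinophil probe sets and of the tested genes of 5 related lists, 1 point each; red points passed an adjusted p under 0.05 and are named in the lists. The 4 largest eosinophil changes, 1.97 to 2.22, lie above every gene of the other lists.

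Several of the signals that act on eosinophils were at background in whole marrow. Of 18 cytokines and receptors with a probe set, 7 were at or under background on all arrays, among them Il3, Csf2, Il4, Il13, Il33 and the eotaxin Ccl11. Il5 read 0, 0.1 and 0.5 in controls and 2.2, 0.1 and 0.1 in induced arrays, so that 1 array was above background (limma, adjusted p = 0.819). Of 12 tested 1 rose and 0 fell, with a median log2 change of 0.04. Ccl5, a ligand of Ccr3 and other receptors, went from 0.53 ± 0.55 to 3.07 ± 0.49 (SD, n = 3 each; limma adjusted p = 0.0459), a call that no fit with 1 array fewer kept: without control 1 (0.126), control 2 (0.0520), control 3 (0.158), induced 1 (0.0794), induced 2 (0.145) and induced 3 (0.171). Csf2rb, the shared signalling chain of the interleukin 5 receptor, read 5.9, 10.4 and 20 in controls and 23.4, 16.1 and 21.5 in induced arrays, with overlapping groups (limma, adjusted p = 0.269). Csf2rb2, its mouse-specific interleukin 3 counterpart, read 2.2, 4.7 and 3.6 against 17.2, 6.0 and 9.3 (limma, adjusted p = 0.0990).

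Of 14 transcription factors listed for the lineage, 12 had a probe set under the listed symbol, and Cebpe and Spi1 did not. Among the 12, all tested, 1 rose and 1 fell, with a median log2 change of -0.06. Over all genes tested, 5.13% were called higher and 1.83% lower. In fits without control 1 or without induced 2, 2 factors fell, and after quantile normalization 1 rose and 3 fell. Gata1, required for eosinophils and also for red cells and platelets, read 16, 21.6 and 18.2 in controls and 5.2, 6.1 and 7.0 in induced arrays, a mean of 18.6 ± 2.82 against 6.10 ± 0.90 (SD, n = 3 each; limma adjusted p = 6.49e-04). The erythroid markers, whose summed signal is given above, fell in the same arrays in 7 of 8, and the part of red cell precursors in the Gata1 value was not tested. Id2, an inhibitor of basic helix-loop-helix factors that is also expressed in lymphoid and dendritic cells, rose from 10.0 ± 4.62 to 27.3 ± 5.06 (SD, n = 3 each; limma adjusted p = 0.00917). Cebpa, the C/EBP factor of early granulocytes, read 10.7, 8.9 and 9.7 against 7.3, 6.2 and 5.7, and did not pass (limma, adjusted p = 0.0609).

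Markers of other granulocytes were read on the same arrays. Among basophil and mast cell markers 1 of 8 tested rose and 1 fell, with a median log2 change of -0.05. The basophil protease Mcpt8 fell from 13.7 ± 2.40 to 2.13 ± 1.69 (SD, n = 3 each; limma adjusted p = 0.00111), and Hdc, which makes histamine and is also expressed in myeloid cells, went from 5.47 ± 0.55 to 15 ± 5.86 (SD, n = 3 each; limma adjusted p = 0.0285). The Hdc call did not hold when control 1 (adjusted p = 0.0731), control 2 (0.122), control 3 (0.113) or induced 2 (0.0577) was left out. The mast cell proteases Tpsab1, Tpsb2, Cma1 and Mcpt4 were at or under background throughout, and the summed signal of the list was 24.4 to 28.7 in controls and 19.1 to 30.6 in induced arrays. Primary granule genes of neutrophils fell in 4 of 5 (median log2 change -0.59), and in 3 of 5 without any 1 array other than control 1. Their summed signal was 209.1 to 253.9 in controls and 97.8 to 131.1 in induced arrays. Secondary granule genes fell in 1 of 9. This count was 0 without control 1, control 3, induced 2 or induced 3, and 2 without control 2 or induced 1. It was 6 after quantile normalization and 0 after scaling to a common trimmed mean. Markers of monocytes and macrophages, cells that also make some Ear ribonucleases and F4/80, rose in 5 of 10 and fell in 1 (2 rose without induced 1, and 3 without any 1 control or induced 3), and their summed signal was 90.1 to 125.0 in controls and 118.5 to 150.1 in induced arrays. The part of monocytes and macrophages in the Ear, Alox15 and Emr1 values was not tested. B cell markers rose in 3 of 8 and fell in 0 (1 fell without induced 3), with a summed signal of 116.5 to 123.9 in controls and 224.0 to 270.2 in induced arrays. The counts of all these lists depended on the pseudocount. At a pseudocount of 1 the calls were 0 other Ear genes, 1 rise of surface and lipid mediator genes, 0 cytokines and receptors, 0 transcription factors, and 1 fall and 0 rises of basophil and mast cell markers. At that setting 0 primary and 0 secondary granule genes were called, 1 monocyte and macrophage marker rose and 1 fell, 0 B cell markers were called, and 5 erythroid markers fell. By the authors' p-values, 2 primary and 1 secondary granule genes were lower, and 0 monocyte and macrophage markers were higher and 1 lower. Of surface and lipid mediator genes 1 was higher and 1 lower, and of transcription factors 1 was higher and 1 lower. Calls were 0 for other Ear genes, for cytokines and receptors, and for basophil and mast cell markers. At that setting 2 B cell markers were higher and 6 erythroid markers lower.

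Tested genes with a single symbol were ranked by how close their values over the 6 arrays lay to those of Prg2. The eosinophil genes described here and the Ear family were left out of this ranking. The measure was the root mean square distance of log2(signal + 16) from the control mean. The 5 closest genes were Srgn (distance 0.18), Dusp1 (0.22), Fos (0.32), S100a6 (0.41) and Lyrm4 (0.43). Srgn, serglycin, the proteoglycan that packs proteins in the granules of many blood cells, read 57.4, 59.6 and 60.6 in controls and 309.3, 256.5 and 276.9 in induced arrays. Among the induced arrays, Srgn and Prg2 were highest in induced 1 and lowest in induced 2. So were Dusp1, S100a6, Lyrm4 and the summed signal of all probe sets, so this order is not particular to granule genes. Fos was highest in induced 1 and lowest in induced 3. Dusp1 and Fos are immediate early genes, S100a6 is a calcium-binding protein, and Lyrm4 serves iron-sulfur cluster assembly. With 2 groups of 3 arrays, this distance mostly reflects the size of the difference between the groups.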

How the data were processed

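RNA of whole marrow pools was read on 6 Affymetrix mouse arrays. The authors deposited 1 linear intensity per probe set and array. Per the submitters' processing notes it is a MAS5 signal; the MAS5 version and scaling target are not given in the sources used here. A second deposited table, from an ANOVA per the file headers, lists the authors' p-value, not adjusted, and the ratio of the groups (control divided by induced, linear). Gene symbols came from that table, where 1280 probe sets have several.

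Signals were used as deposited, as log2(signal + 16). Of all signals 76.9% were 2 or lower. Control probe sets (64) were left out, and 31526 probe sets with a mean over the 30th percentile were tested with lmFit and eBayes (limma 3.58.1, R 4.3.3) and Benjamini-Hochberg adjustment. The number of arrays limits the precision, as do signals near background. The background of 2 is the highest signal of 27 unspiked bacterial control probe sets. Genes outside the 8 are represented by their brightest probe set. Named are all eosinophil probe sets, up to 3 called genes with the smallest p of each related list, defining markers near background and the 5 genes most like Prg2; other genes were named after their values were seen. Members, the 10 lists and tests were chosen with earlier results of these data known. Neutrophil, monocyte, B cell and erythroid lists are given as counts and summed signals, without single genes. Promoters were aligned with Biopython 1.88 (match 1, mismatch -1, gap opening -2, extension -0.5). The fit was tested on simulated data. Alternatives were quantile, median and trimmed mean scaling, other pseudocounts and filters, array weights, an intensity trend, a block on replicate number, the authors' p-values and leaving out each array. Same-numbered arrays did not deviate together (correlations -0.07, 0.04 and -0.03), so the numbers were not used as pairs. Figures were drawn with matplotlib 3.10.9.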

Additional observations from a re-analysis of the deposited data

How the results depend on the processing

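Ear1, Prg2 and both shared Ear probe sets kept their direction and passed in all 16 alternatives fitted here; by the authors' p-values, adjusted over the same probe sets, the 3-gene Ear probe set had an adjusted p of 0.0505. Epx passed in 15 of 16 and Prg3 in 9 of 16. Prg3 missed the threshold at pseudocounts of 1 (limma, adjusted p = 0.0801) and 64 (0.128) and with no filter (0.146). The count of eosinophil probe sets called ranged from 4 to 6, at 4 for a pseudocount of 1 and 4 by the authors' p-values, and 5 to 6 with any 1 array left out. The count over all probe sets, 1747, was 211 at a pseudocount of 1, 1087 at 64, 841 with no filter, 613 by the authors' p-values, and 1181 to 1659 with 1 array left out. The fit with the replicate block called 1377 probe sets and the same 6 eosinophil ones. Small differences from the Prg2 change turned sign with the pseudocount: the 4-gene Ear probe set to -0.041 at 1, Ear1 to -0.11 and the 3-gene Ear probe set to 0.058 at 64. The cause was not tested. Signals near 2 limit what can be said of Il5ra, Ccr3, Prg3 and Siglecf.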
